A study of Homo sapiens with 15 samples.

Results

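The genes described here encode the machinery that presents intracellular peptides on MHC class I molecules. They are the heavy chain genes HLA-B and HLA-C, the light chain gene B2M, the peptide transporter genes TAP1 and TAP2, the tapasin gene TAPBP, the immunoproteasome genes PSMB8 and PSMB9 and the transactivator gene NLRC5. These 9 genes were taken by name from the 61544 genes of the raw count table, and all 9 passed the low-count filter, with 104 to 9792 counts per library. RNA-seq was performed on HCC95, an established cell line from a human lung squamous cell carcinoma (LUSC), after knockdown of 1 of 4 transcription factors (TFs) with a small interfering RNA (siRNA). The groups were siNC1 (negative control siRNA), siKLF5b (against KLF5), siTP63b (against TP63, which encodes p63), siSOX2b (against SOX2) and siGRHL2a (against GRHL2), with 3 libraries each and 1 siRNA per target. All groups were the same line, and the labels give neither the time after transfection nor whether replicates were separate cultures, so p-values measure only the spread between these libraries. In such bulk RNA, fewer cells with a transcript and less transcript per cell cannot be told apart.

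MHC class I molecules consist of a polymorphic heavy chain and beta-2-microglobulin, and they show peptides from inside the cell to CD8+ T cells. The proteasome, in which PSMB8 and PSMB9 replace constitutive catalytic subunits, cuts proteins into peptides, the TAP1-TAP2 heterodimer pumps them into the endoplasmic reticulum, and tapasin holds the empty class I molecule at the transporter until a peptide binds. Most of these genes are induced by interferon gamma through interferon regulatory factors and NLRC5, and epithelial tumours often carry low levels of them.

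Library totals ranged from 15655495 to 34229063 counts. The header names part the libraries into a set of 6 (siNC1 and siKLF5b) and a set of 9 (siTP63b, siSOX2b and siGRHL2a). Among genes with 20 to 500 counts, even numbers made up 49.7% to 50.7% of counts in the first set and at least 66.1% in every library of the other. Set and knockdown cannot be told apart where a library of one set is compared with a library of the other, so comparisons were made inside a set and the values against siNC1 are given separately. KLF5 was lower in siKLF5b than in siNC1 (72.5 ± 1.13 against 113 ± 8.67 CPM, counts scaled to a common library size, SD, n = 3 each). TP63, SOX2 and GRHL2 were each lowest of the 5 groups in the knockdown aimed at them, at 363 ± 22.3, 8.97 ± 1.63 and 91.3 ± 0.560 CPM (SD, n = 3 each). For GRHL2 the margin inside the set was small, with 100 ± 4.58 CPM in siSOX2b and 117 ± 2.39 CPM in siTP63b (SD, n = 3 each). In siNC1, of the other set, GRHL2 had 135 CPM. SOX2 was also below its siNC1 level of 73.3 CPM in siTP63b (29.5 CPM) and siGRHL2a (20.2 CPM). The 10 squamous epithelial markers included KRT5, KRT14, DSG3 and the siRNA targets TP63 and SOX2. They summed to between 6613 and 7654 CPM per library in siKLF5b and between 10592 and 12097 CPM in siNC1. In the other set they summed to 6828 to 7855 CPM in siTP63b, 9754 to 10730 CPM in siSOX2b and 12324 to 12690 CPM in siGRHL2a. Most of each sum was KRT5 (group means of 5363 to 9192 CPM), and in siKLF5b 6 of the 10 fell past the test while DSG3 and SOX2 rose. Of 10 leukocyte markers, 6 had at most 3 counts in every library, and the list summed to 21.9 to 25.0 CPM in siKLF5b and 34.9 to 37.5 CPM in siNC1, most of it CD68, and to 29.1 to 31.9, 32.0 to 34.6 and 30.7 to 40.1 CPM in siTP63b, siSOX2b and siGRHL2a. The 6 fibroblast markers summed to at most 9.995 CPM in any library. What part these differences had in the results below was not tested.

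The RefSeq promoter table for GRCh38.p14 held 8 of the 9 genes, all but NLRC5. The interferon-stimulated response element, searched on both strands as TTTC and TTTC with 2 free bases between them, overlapping matches allowed, was present in 5 of the 8 genes (B2M, TAP1, TAP2, TAPBP and PSMB8). It was present in 3.574% of the 35116 promoters of 300 bases in that table. The promoters of TAP1 and of the 5 genes that differed inside a set and had an entry are printed from 250 bases before the start site to 49 after it, 5′ to 3′ on the strand of the gene, with the matches in capitals. PSMB8 and TAP1 each had 2 listed start sites, and the promoter that held the match is shown.
HLA-B, chr6:31357130-31357429, minus strand: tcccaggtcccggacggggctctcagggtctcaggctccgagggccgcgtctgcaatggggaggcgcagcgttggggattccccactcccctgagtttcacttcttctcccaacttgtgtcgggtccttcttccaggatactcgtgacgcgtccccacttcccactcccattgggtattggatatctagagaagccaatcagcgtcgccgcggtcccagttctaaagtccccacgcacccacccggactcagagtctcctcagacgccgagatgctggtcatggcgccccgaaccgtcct
B2M, chr15:44711267-44711566, plus strand: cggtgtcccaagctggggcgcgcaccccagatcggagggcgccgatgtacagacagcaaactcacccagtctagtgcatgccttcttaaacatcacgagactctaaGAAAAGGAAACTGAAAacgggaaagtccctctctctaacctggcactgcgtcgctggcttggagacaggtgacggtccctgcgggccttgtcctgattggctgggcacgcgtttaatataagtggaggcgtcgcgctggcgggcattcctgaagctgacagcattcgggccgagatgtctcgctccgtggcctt
TAP1, chr6:32853655-32853954, minus strand: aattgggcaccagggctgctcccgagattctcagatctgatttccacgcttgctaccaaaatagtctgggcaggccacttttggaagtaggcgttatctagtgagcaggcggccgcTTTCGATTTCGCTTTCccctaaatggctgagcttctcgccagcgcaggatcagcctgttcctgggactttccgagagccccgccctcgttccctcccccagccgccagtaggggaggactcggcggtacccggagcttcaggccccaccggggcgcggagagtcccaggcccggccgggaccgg
TAP2, chr6:32838690-32838989, minus strand: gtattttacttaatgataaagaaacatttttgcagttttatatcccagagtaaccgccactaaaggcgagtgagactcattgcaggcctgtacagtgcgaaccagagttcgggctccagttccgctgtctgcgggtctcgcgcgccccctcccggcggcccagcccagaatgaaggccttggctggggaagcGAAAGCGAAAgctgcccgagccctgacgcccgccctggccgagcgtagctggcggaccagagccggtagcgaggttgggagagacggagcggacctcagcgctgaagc
TAPBP, chr6:33314029-33314328, minus strand: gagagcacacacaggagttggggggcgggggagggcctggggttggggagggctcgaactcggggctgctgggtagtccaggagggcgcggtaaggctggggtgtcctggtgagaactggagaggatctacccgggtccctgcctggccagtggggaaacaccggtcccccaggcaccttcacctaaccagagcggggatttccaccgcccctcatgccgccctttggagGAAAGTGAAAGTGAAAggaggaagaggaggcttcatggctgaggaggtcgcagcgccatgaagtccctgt
PSMB8, chr6:32843998-32844297, minus strand: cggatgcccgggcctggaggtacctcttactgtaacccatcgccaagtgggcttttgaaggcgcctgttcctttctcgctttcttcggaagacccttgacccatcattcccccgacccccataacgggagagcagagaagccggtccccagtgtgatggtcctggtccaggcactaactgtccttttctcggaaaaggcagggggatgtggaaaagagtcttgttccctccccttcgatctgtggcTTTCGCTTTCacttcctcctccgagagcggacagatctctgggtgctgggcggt
Counted from the start site as 0, the match spanned -4 to 5 in PSMB8 and -58 to -49 in TAP2. TAP1 held 2 overlapping matches, at -134 to -125 and at -128 to -119, and the capitals join overlapping matches also in B2M and TAPBP. HLA-B held no match to these letters.

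Other motifs were searched in the same windows. An NF-kB motif (GGGA and CC with 4 free bases between) was present in 5 of 8 genes (HLA-B, HLA-C, B2M, TAP1 and TAPBP) and in 25.59% of all promoters. A KLF motif (CCNCNCCC) was present in 7 of 8 genes, all but B2M, and in 56.18% of all promoters. The gamma-activated site (TTCNNNGAA) was present in TAP1 and PSMB8, 2 of 8 genes, and in 7.657% of all promoters. This match in TAP1 and the KLF match in PSMB8 lay at the start site whose promoter is not printed. A gene with 2 start sites counted if either promoter held a match, while the share of all promoters is per promoter. The letters AACCNGTT (GRHL), AACAAT (SOX) and CATG and CATG with 6 free bases between (p63) were present in 0 of 8 genes, and in 1.726%, 10.12% and 0.373% of all promoters. A match is only a run of letters in a window, and binding was not measured here.

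In hg38, 7 of the 9 genes lie in the major histocompatibility complex on chromosome 6. HLA-C (ENSG00000204525.18) spans 31268749 to 31272130 and HLA-B (ENSG00000234745.14) spans 31353872 to 31367067, both on the minus strand. TAP2 (ENSG00000204267.17, minus strand, 32821833 to 32838739), PSMB8 (ENSG00000204264.12, minus strand, 32840717 to 32844679), TAP1 (ENSG00000168394.12, minus strand, 32845209 to 32853816) and PSMB9 (ENSG00000240065.8, plus strand, 32844136 to 32859851) follow each other in the class II region. TAPBP (ENSG00000231925.13, minus strand) spans 33299694 to 33314254. B2M (ENSG00000166710.23, plus strand) spans 44711358 to 44718851 on chromosome 15, and NLRC5 (ENSG00000140853.17, plus strand) spans 56989485 to 57083531 on chromosome 16.

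Reads of overlapping genes were shared in these counts. The counted length of each gene was its whole span, introns included, and in 1498 of 1498 pairs where a gene with a mean of at least 100 counts lay inside a gene on the opposite strand, the outer gene had at least the inner gene's count in every library. TAP1 lies wholly inside the span of PSMB9, and the TAP1 count was 78.0% to 85.1% of the PSMB9 count. The value of PSMB9 therefore repeats that of TAP1 for the most part, and it is given below also after subtraction of the TAP1 count. TAP2 lies inside the readthrough gene ENSG00000250264 on the same strand, whose count was 101% to 105% of that of TAP2, so transcripts of the pair could not be separated. ENSG00000289100 overlaps one end of TAPBP on the other strand and had 35.3% to 45.4% as many counts. PSMB8 shares 544 bases at its upstream end with PSMB9, which had 90.8% to 165% as many counts, and overlaps PSMB8-AS1, which had 8.08% to 30.1% as many. PSMB8-AS1 also shares 1292 bases with TAP1, with 8.72% to 21.8% as many counts, and 2365 bases with PSMB9, with 6.99% to 18.2% as many. Genes inside HLA-B (ENSG00000271581) and NLRC5 (ENSG00000260145) had 5.99% to 11.3% and 5.29% to 18.9% as many counts as their hosts, and HLA-C and B2M overlapped no listed gene.

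**Figure D1:**
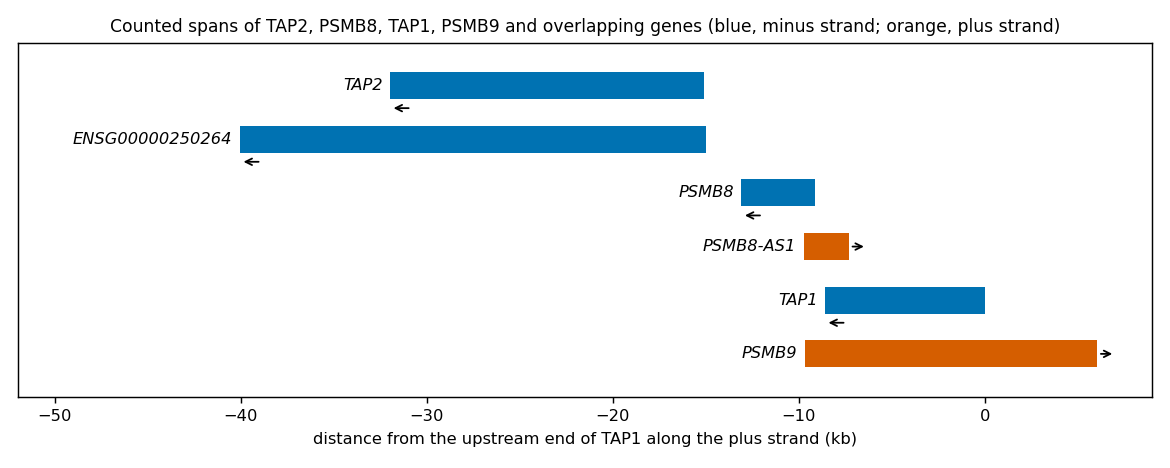
Map of the counted spans of TAP2, PSMB8, TAP1, PSMB9 and the genes that overlap them, with distance in kilobases from the upstream end of TAP1 along the plus strand. Bars are spans, blue for the minus strand and orange for the plus strand, and arrows give the direction of transcription. The span of TAP1 lies wholly within that of PSMB9, and the span of TAP2 within that of ENSG00000250264.

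After KLF5 knockdown 3 genes of the class I machinery were lower past the test, by modest amounts. TAPBP fell by 17.4%, HLA-B fell by 15.4% and NLRC5 fell by 20.3% in siKLF5b relative to siNC1 (adjusted p of edgeR's quasi-likelihood test below 0.05). These were 3 of the 9 genes, where 12.9% of the 25108 genes tested were lower, and 0 of 9 were higher, where 10.3% of all genes were. With 9 genes such counts are not a result about the genes as a group, and of the 3 calls that of TAPBP held under every alternative, while those of HLA-B and NLRC5 did not. B2M, PSMB8, TAP1, TAP2, PSMB9 and HLA-C did not pass. The 9 log2 fold changes (log2FC) lay between -0.33 and 0.14 with a median of -0.16, against a median of -0.0097 over all genes tested. Of the 9, 7 were below 0, as were 12876 of the 25108 genes tested. Among the 7 were TAP1 and PSMB9, which share most of their reads. The 2 groups did not overlap for 6 of the 9 genes, as for 42.5% of all genes. The study called differentially expressed genes (DEGs) where the adjusted p was below 0.05 and the log2FC passed 0.75 in either direction. By edgeR 0 of the 9 genes were DEGs, where 3.26% of all genes were, and DESeq2 gave 0 as well. At an unadjusted p below 0.05, 6 of the 9 differed (edgeR), as did 33.3% of all genes.

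Inside the other set, single genes set the knockdowns apart while TAP1, PSMB9, HLA-C and NLRC5 differed between no pair past the test. TAP2 was highest in siSOX2b, TAPBP was highest in siGRHL2a, and HLA-B and PSMB8 were lowest in siTP63b. In siTP63b relative to siSOX2b, 3 of the 9 genes were lower and 1 was higher past the test, where 15.4% of all genes were lower and 16.4% higher. Relative to siGRHL2a, 3 of 9 were lower and 0 higher in siTP63b, against 13.4% and 13.6% of all genes. In siGRHL2a relative to siSOX2b, 2 of 9 were higher and 1 was lower, against 12.7% and 11.8% of all genes. Groups did not overlap for 3 of 9 genes in each of these pairs, in the same order as for 38.3%, 35.6% and 35.2% of all genes. Counts this small, out of 9 genes, are not a result about the genes as a group. None of the pairs held a DEG among the 9 by edgeR or DESeq2 (6.7%, 5.39% and 3.32% of all genes by edgeR), and at an unadjusted p below 0.05 5, 3 and 3 of the 9 differed (edgeR), against 40.7%, 36.9% and 35.3% of all genes.

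**Figure D2:**
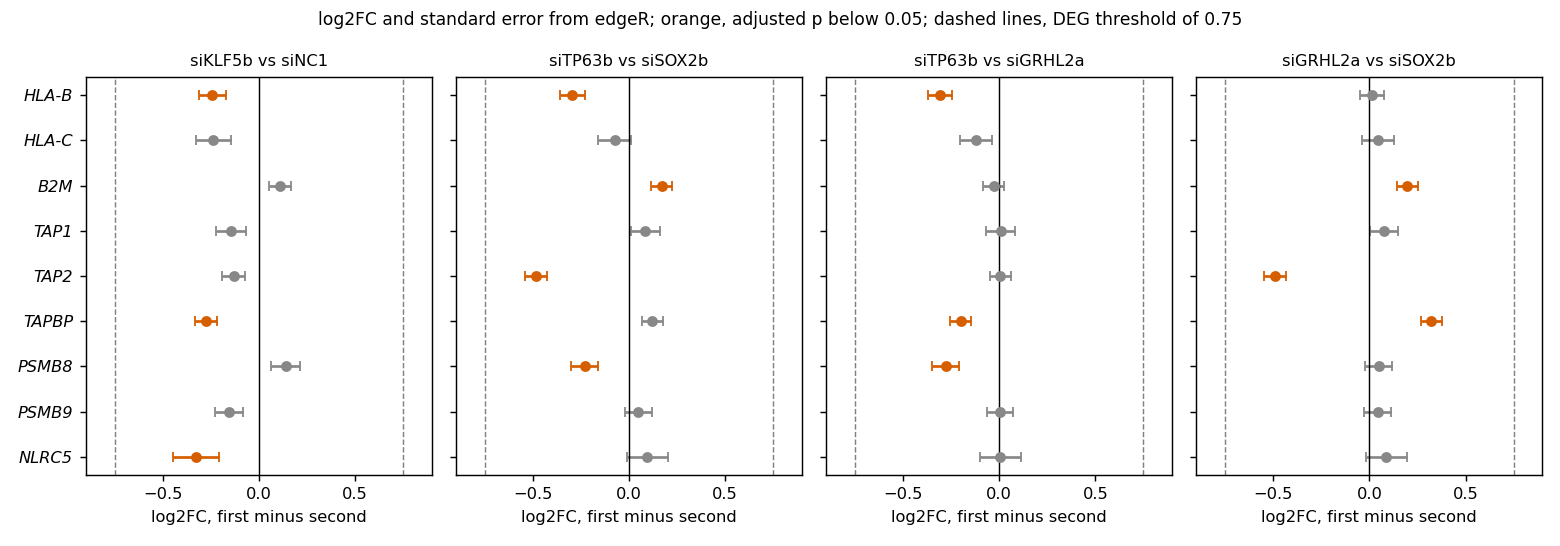
log2FC of the 9 genes (horizontal axis, first group minus second) with the standard error derived from edgeR's test. The comparisons are siKLF5b with siNC1 and the 3 inside the other set. Orange marks an adjusted p below 0.05 and dashed lines mark the DEG threshold of 0.75. All points lie between the dashed lines, and TAP2 lies farthest from 0, at -0.48 and -0.49 in the comparisons with siSOX2b.

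The heavy chains bind the peptide and carry most of the variation between people. HLA-B had 56.7, 57.8 and 52.4 CPM in siNC1 and 44.3, 48.2 and 48.7 CPM in siKLF5b. All 3 siKLF5b libraries lay below all 3 siNC1 libraries, giving a log2FC of -0.24 (standard error 0.069, edgeR adjusted p = 0.00915). Groups of 3 against 3 cannot go below p = 0.1 in an exact two-sided permutation test, which was the value here. Without siKLF5b replicate 1, the lowest library, the log2FC was -0.21 and no longer passed (adjusted p = 0.061). In the other set HLA-B had 66.8, 59.5 and 63.2 CPM in siTP63b, 77.2, 69.9 and 85.9 CPM in siSOX2b and 81.1, 76.8 and 77.0 CPM in siGRHL2a. The siTP63b libraries lay below all 6 others, while siSOX2b and siGRHL2a overlapped. The summed squamous markers, mostly KRT5, were lowest of the set in siTP63b too, though the list holds TP63, the target itself. Their part in this order, here and for PSMB8, was not tested. HLA-B was 0.816-fold in siTP63b relative to siSOX2b (log2FC -0.29, standard error 0.064, adjusted p = 0.000592) and 0.807-fold relative to siGRHL2a (log2FC -0.31, standard error 0.064, adjusted p = 0.000389). The difference between siGRHL2a and siSOX2b was 0.014 on the log2 scale (95% interval -0.11 to 0.14).

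HLA-C, the other heavy chain gene and also a ligand of natural killer cell receptors, had 37.7, 29.9 and 27.3 CPM in siNC1 and 27.2, 27.2 and 26.1 CPM in siKLF5b. The siKLF5b libraries were the lower ones, by a narrow margin over siNC1 replicate 3. The log2FC of -0.24 (standard error 0.092) did not pass the test (adjusted p = 0.0609), and its size depended on the library. Without siNC1 replicate 1, the highest library, it was -0.094 (adjusted p = 0.559), and without siNC1 replicate 3 it was -0.34 and passed (adjusted p = 0.0092). It also passed without a low-count filter (adjusted p = 0.0322) and without siGRHL2a replicate 2 (adjusted p = 0.0469). HLA-C had 36.6, 35.7 and 37.9 CPM in siTP63b, 38.7, 36.4 and 41.0 CPM in siSOX2b and 36.1, 44.6 and 38.9 CPM in siGRHL2a. These 3 groups overlapped, and no pair differed past the test (adjusted p from 0.325 to 0.749, with 95% intervals of the log2FC between -0.29 and 0.21).

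B2M encodes the light chain shared by all class I molecules. It had 187, 204 and 207 CPM in siNC1 and 212, 224 and 208 CPM in siKLF5b. The siKLF5b libraries lay just above those of siNC1, but the log2FC of 0.11 (standard error 0.058) did not pass (adjusted p = 0.19), and it passed when only the 6 libraries compared were fitted (0.12, adjusted p = 0.019). Without siNC1 replicate 1 it was 0.059 (adjusted p = 0.606). In the other set B2M had 286, 295 and 258 CPM in siTP63b, 246, 229 and 272 CPM in siSOX2b and 284, 288 and 284 CPM in siGRHL2a. The siGRHL2a libraries were all above those of siSOX2b, and those of siTP63b overlapped both. B2M was 1.15-fold in siGRHL2a relative to siSOX2b (log2FC 0.20, standard error 0.056, adjusted p = 0.00891). Without siSOX2b replicate 2 this was 0.13 (adjusted p = 0.116). The difference between siTP63b and siSOX2b was 0.17 (standard error 0.056, adjusted p = 0.021). That call was lost without siTP63b replicate 1 (0.15, adjusted p = 0.0846), siTP63b replicate 2 (0.13, adjusted p = 0.121), siSOX2b replicate 1 (0.16, adjusted p = 0.0689) or siSOX2b replicate 2 (0.11, adjusted p = 0.176), and in the fit of the 6 libraries alone (0.16, adjusted p = 0.0576). So B2M and HLA-B, the light and a heavy chain, did not share an order in this set. HLA-B was lowest in siTP63b, where the mean of B2M (280 CPM) lay between those of siSOX2b (249 CPM) and siGRHL2a (285 CPM).

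TAP2, the second subunit of the peptide transporter, showed the largest difference among the 9 genes inside a set. It had 57.8, 56.8 and 61.7 CPM in siTP63b, 78.0, 82.8 and 85.6 CPM in siSOX2b and 56.2, 60.3 and 58.9 CPM in siGRHL2a. The siSOX2b libraries stood above all 6 others, whose 2 groups overlapped. TAP2 was 0.716-fold in siTP63b relative to siSOX2b (log2FC -0.48, standard error 0.056, adjusted p = 3.3e-08) and 0.712-fold in siGRHL2a relative to siSOX2b (log2FC -0.49, standard error 0.055, adjusted p = 5.0e-08). Over all alternatives the log2FC stayed between -0.52 and -0.46 in the first comparison and between -0.54 and -0.47 in the second, with an adjusted p of at most 1.7e-06. The difference between siTP63b and siGRHL2a was 0.0069 (95% interval -0.10 to 0.12). The readthrough gene ENSG00000250264 had log2FCs of -0.49 and -0.50 in the comparisons with siSOX2b, and its part in the TAP2 count was not tested. In the first set TAP2 had 43.8, 44.0 and 43.7 CPM in siNC1 and 40.1, 41.6 and 38.3 CPM in siKLF5b. The siKLF5b libraries lay below, but the log2FC of -0.13 (standard error 0.061) did not pass (adjusted p = 0.127).

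TAP1, the first subunit, followed another pattern. It had 34.9, 35.0 and 30.0 CPM in siNC1 and 30.0, 28.1 and 32.3 CPM in siKLF5b, and these groups overlapped (log2FC -0.15, standard error 0.080, adjusted p = 0.203). It had 40.4, 37.9 and 44.3 CPM in siTP63b, 38.7, 36.2 and 40.8 CPM in siSOX2b and 37.9, 41.7 and 42.4 CPM in siGRHL2a. All 3 groups overlapped, and the log2FCs were between 0.0072 and 0.085 with adjusted p from 0.422 to 0.96. The 95% interval of the siTP63b-siSOX2b difference ran from -0.061 to 0.23, and that of TAP2 in the same comparison ran from -0.59 to -0.37. The interval of TAP1 covered 0 and that of TAP2 did not, and the difference between the genes was not itself tested.

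TAPBP encodes tapasin, which bridges the empty class I molecule to the transporter. It had 62.8, 60.7 and 66.8 CPM in siNC1 and 53.2, 53.1 and 50.9 CPM in siKLF5b. The siKLF5b libraries lay below every control library, and TAPBP was 0.826-fold (log2FC -0.28, standard error 0.059, adjusted p = 0.00067). This was the call that held under every alternative, with a log2FC between -0.31 and -0.23 and an adjusted p of at most 0.0075. In the other set TAPBP had 76.8, 81.8 and 87.4 CPM in siTP63b, 76.2, 72.5 and 77.5 CPM in siSOX2b and 90.1, 94.2 and 98.2 CPM in siGRHL2a. The siGRHL2a libraries stood above all 6 others, and siTP63b and siSOX2b overlapped. TAPBP was 1.25-fold in siGRHL2a relative to siSOX2b (log2FC 0.32, standard error 0.055, adjusted p = 4.5e-05), with an adjusted p of at most 0.00117 under the alternatives. It was 0.871-fold in siTP63b relative to siGRHL2a (log2FC -0.20, standard error 0.055, adjusted p = 0.00596), a call lost without siTP63b replicate 1 (-0.15, adjusted p = 0.0713) and without siGRHL2a replicate 3 (-0.16, adjusted p = 0.0569). The difference between siTP63b and siSOX2b, 0.12, did not pass (adjusted p = 0.0965) except without siTP63b replicate 1 (0.16, adjusted p = 0.0448). ENSG00000289100, which shares 1397 bases with TAPBP, had a log2FC of -0.25 in siKLF5b (adjusted p = 0.0235) and of 0.26 in siGRHL2a relative to siSOX2b (adjusted p = 0.00944), and its part in the TAPBP count was not tested.

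PSMB8 encodes the immunoproteasome subunit that takes the place of PSMB5. It had 28.6, 25.4 and 27.7 CPM in siNC1 and 27.8, 31.4 and 31.0 CPM in siKLF5b, 2 overlapping groups (log2FC 0.14, standard error 0.076, adjusted p = 0.206). It had 43.6, 37.2 and 41.6 CPM in siTP63b, 45.7, 50.3 and 47.6 CPM in siSOX2b and 46.6, 51.1 and 50.8 CPM in siGRHL2a. As for HLA-B, the siTP63b libraries lay below the 6 others. PSMB8 was 0.824-fold in siTP63b relative to siGRHL2a (log2FC -0.28, standard error 0.069, adjusted p = 0.00246, at most 0.0386 under the alternatives). Relative to siSOX2b it was 0.852-fold (log2FC -0.23, standard error 0.069, adjusted p = 0.0106), a call lost without siTP63b replicate 2 (-0.17, adjusted p = 0.0867) and without siSOX2b replicate 2 (-0.20, adjusted p = 0.0602). PSMB8-AS1, which overlaps the upstream end of PSMB8, had a log2FC of -0.57 in siTP63b relative to siGRHL2a (adjusted p = 0.0044) and of -0.36 relative to siSOX2b (adjusted p = 0.0767), and its part in the PSMB8 count was not tested.

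PSMB9 encodes the subunit that takes the place of PSMB6. Its counts gave 42.6, 41.8 and 36.8 CPM in siNC1, 37.1, 33.9 and 38.0 in siKLF5b, 50.5, 46.2 and 53.5 in siTP63b, 49.6, 45.7 and 50.2 in siSOX2b and 46.1, 51.2 and 52.5 in siGRHL2a. Groups of 1 set overlapped in every pair, and none differed past the test (adjusted p from 0.14 to 0.976). Without siNC1 replicate 3 the log2FC in siKLF5b was -0.23 and passed (adjusted p = 0.0461). After subtraction of the TAP1 count, which was tried after the overlap had been seen, 89 to 357 counts per library remained. They gave 7.11 ± 0.487 CPM in siNC1 and 6.18 ± 0.790 CPM in siKLF5b (SD, n = 3 each; log2FC -0.20, adjusted p = 0.317). In siTP63b the remainder was 9.20 ± 0.829 CPM, against 9.89 ± 0.887 in siSOX2b and 9.27 ± 1.01 in siGRHL2a (SD, n = 3 each), with adjusted p from 0.53 to 0.968 between them. PSMB8-AS1 and the upstream end of PSMB8 also overlap PSMB9, and their part in this remainder was not tested.

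**Figure D3:**
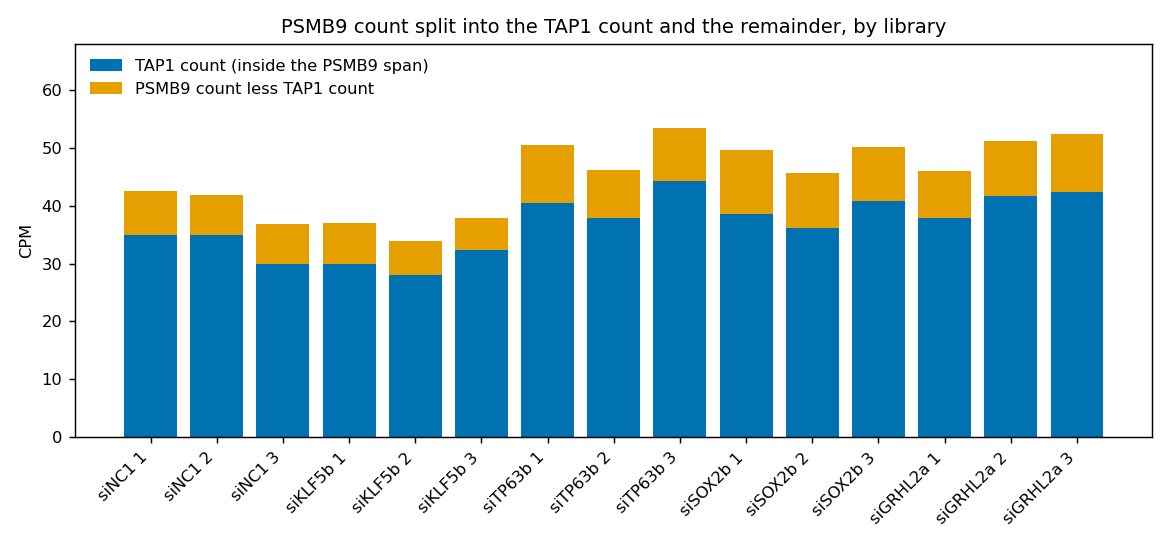
The PSMB9 count of each of the 15 libraries in CPM (vertical axis), split into the part equal to the TAP1 count (blue) and the remainder (orange). The blue part is 78.0% to 85.1% of each bar, so the height of the bar follows TAP1.

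NLRC5 encodes the transactivator that binds class I promoters. It had 7.93, 9.44 and 9.23 CPM in siNC1 and 7.55, 6.95 and 6.61 CPM in siKLF5b. The siKLF5b libraries lay below, and NLRC5 was 0.797-fold (log2FC -0.33, standard error 0.12, adjusted p = 0.0457). With 104 to 220 counts in these libraries the call was fragile. It was lost with upper-quartile factors (adjusted p = 0.0613), without a low-count filter (0.102), with DESeq2 (0.0554), with libraries thinned to 1 depth (0.164) and with the replicate number as a block (0.0506). It was also lost without siNC1 replicate 2 (-0.29, adjusted p = 0.149), siNC1 replicate 3 (-0.30, adjusted p = 0.13), siKLF5b replicate 2 (-0.32, adjusted p = 0.128) or siKLF5b replicate 3 (-0.29, adjusted p = 0.138). Libraries of the other set enter the shared fit, and the call was lost as well without siTP63b replicate 1, 2 or 3, siSOX2b replicate 3 or siGRHL2a replicate 1 or 3 (log2FC -0.32 to -0.31, adjusted p from 0.0559 to 0.0631). In the other set NLRC5 had 10.8, 10.7 and 11.3 CPM in siTP63b, 8.93, 11.5 and 10.4 CPM in siSOX2b and 11.5, 11.0 and 10.2 CPM in siGRHL2a. These groups overlapped, and no pair differed past the test (adjusted p from 0.548 to 0.975).

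**Figure D4:**
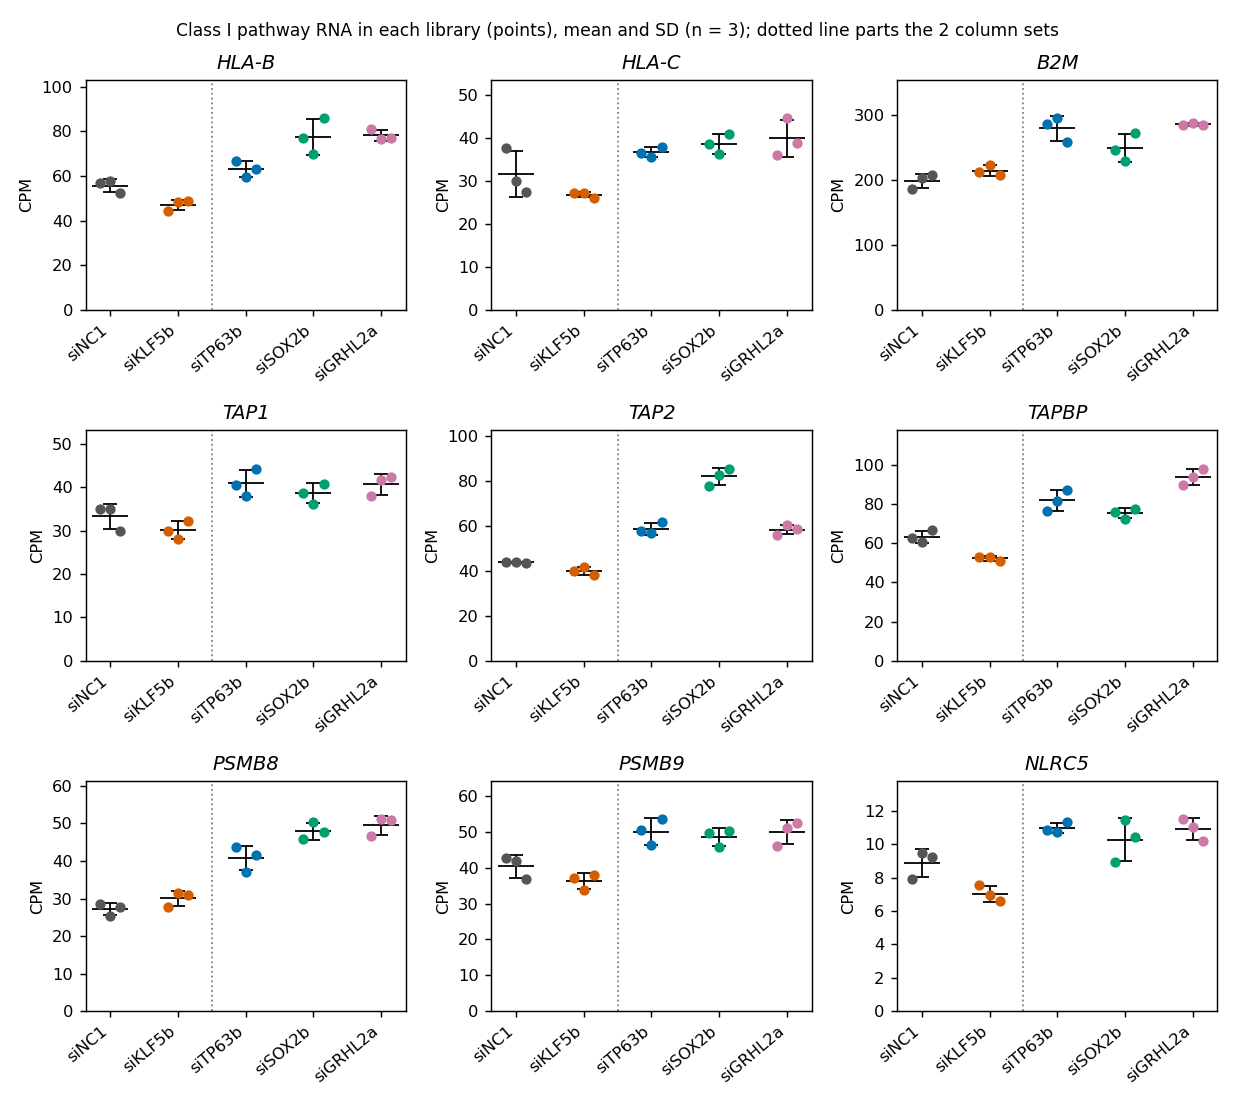
CPM of each of the 9 genes (vertical axes, starting at 0) in the 15 libraries (points) by group, with the mean and SD (bars, n = 3). The dotted line parts the 2 sets of libraries. TAP2 in siSOX2b, at 78.0 to 85.6 CPM, and TAPBP in siGRHL2a, at 90.1 to 98.2 CPM, stand above the other groups, and TAPBP in siKLF5b, at 50.9 to 53.2 CPM, stands below siNC1.

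The comparison with siNC1 is the one that the study drew for every knockdown, and for siTP63b, siSOX2b and siGRHL2a it crosses the 2 sets. There 9 of 9 genes were higher than in siNC1 in siTP63b, 8 of 9 in siSOX2b (all but NLRC5) and 9 of 9 in siGRHL2a, at an adjusted p below 0.05. Of all genes, 28%, 28.1% and 28.2% were higher in the 3 comparisons, which share the siNC1 libraries. The 15 other class I genes tested, described below, did not share this direction as a list. Relative to siNC1, 3 were higher and 9 lower in siTP63b, 4 and 5 in siSOX2b, and 5 and 6 in siGRHL2a. Of the 25108 genes tested, 6571, 6859 and 6469 were lower. PSMB8 had a log2FC of 0.58 in siTP63b, 0.81 in siSOX2b and 0.86 in siGRHL2a. In the same order the log2FC was 0.42, 0.90 and 0.41 for TAP2, 0.49, 0.32 and 0.52 for B2M and 0.37, 0.25 and 0.57 for TAPBP. The heavy chain genes had 0.19, 0.48 and 0.49 (HLA-B) and 0.21, 0.29 and 0.33 (HLA-C). TAP1 had 0.30, 0.21 and 0.29, PSMB9 had 0.31, 0.26 and 0.31, and NLRC5 had 0.31, 0.21 (adjusted p = 0.105) and 0.30. The tallies above count TAP1 and PSMB9 as 2 genes although they share most of their reads. After subtraction of the TAP1 count PSMB9 had 0.37, 0.48 and 0.38 (edgeR adjusted p = 0.0111, 0.0013 and 0.00883). Past the DEG thresholds were TAP2 and PSMB8 in siSOX2b and PSMB8 in siGRHL2a (11.6% and 11.7% of all genes were called higher), and 0 of 9 in siTP63b (11.4%). The same direction in all 3 groups of a set cannot be told apart from a difference between the sets, and the inside-set values above do not depend on it.

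Several of these calls against siNC1 depended on 1 library. HLA-C lost its call in siTP63b without siNC1 replicate 2 (log2FC 0.16), siNC1 replicate 3 (0.090), siTP63b replicate 1 (0.22) or siTP63b replicate 3 (0.20), and also without any 1 of the 3 siKLF5b libraries (0.19 to 0.20, adjusted p from 0.0712 to 0.0725). Without siNC1 replicate 3 it lost its call in siSOX2b (0.18) and siGRHL2a (0.22). HLA-B lost its call in siTP63b without siNC1 replicate 3 (0.12) or siTP63b replicate 1 (0.15). TAP1 lost its call in siSOX2b without siNC1 replicate 3 (0.13) or siSOX2b replicate 3 (0.19). NLRC5 lost its call without siNC1 replicate 1 in siTP63b (0.22) and siGRHL2a (0.21) and without siGRHL2a replicate 1 in siGRHL2a (0.27), and gained it in siSOX2b without siSOX2b replicate 1 (0.33). The calls of B2M, TAP2, TAPBP, PSMB8 and PSMB9 held under every alternative in all 3 comparisons.

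The wider pathway was read from a list of 16 other genes, of which 15 were tested (HLA-G had at most 12 counts). In siKLF5b 4 of the 15 fell and 2 rose relative to siNC1, where 12.9% of all genes fell and 10.3% rose, and 9 did not pass. Among the genes that fell were ERAP1, which trims peptides in the endoplasmic reticulum (log2FC -0.20, adjusted p = 0.000795), HLA-E, a nonclassical heavy chain (-0.23, adjusted p = 0.00597), and the chaperone gene CANX (-0.16, adjusted p = 0.00651). CALR, which encodes the chaperone calreticulin, rose by 0.34 (adjusted p = 1.2e-05), as did LNPEP, an endosomal aminopeptidase gene, by 0.20 (adjusted p = 0.0118).

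In siTP63b 6 of the 15 were lower and 0 higher than in siSOX2b past the test, where 15.4% of all genes were lower and 16.4% higher, and 9 did not pass. Relative to siGRHL2a 5 were lower and 0 higher, where 13.4% of all genes were lower and 13.6% higher, and 10 did not pass. The log2FCs of the list had medians of -0.11 and -0.12 against 0.00059 and -0.0090 over all genes tested. LNPEP (log2FC -0.48 and -0.66), HLA-E (-0.31 and -0.43) and the proteasome activator gene PSME1 (-0.23 and -0.23) were lower in both comparisons, which share the siTP63b libraries. HLA-E had 124, 111 and 123.5 CPM in siTP63b, 150.4, 137 and 157 CPM in siSOX2b and 157, 163 and 164 CPM in siGRHL2a, so that the siTP63b libraries lay below all others, as they did for HLA-B. PSME2, the partner of PSME1, was lower than in siSOX2b (-0.30, adjusted p = 0.00177), as was CALR (-0.27, adjusted p = 0.000184). HLA-F, another nonclassical heavy chain gene, was lower than in siGRHL2a (-0.36, adjusted p = 0.00178), as was the trimming peptidase gene ERAP2 (-0.17, adjusted p = 0.0332). Between siGRHL2a and siSOX2b 3 of the 15 were higher and 2 lower, where 12.7% of all genes were higher and 11.8% lower, namely ERAP2 (0.29), HLA-F (0.25) and LNPEP (0.18) and, lower, CALR (-0.24) and CANX (-0.13). Overlaps of these other genes with their neighbours were not examined.

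Of the 3 constitutive subunits that the immunoproteasome replaces, PSMB5 was the only one to differ in siTP63b past the test. PSMB5, the counterpart of PSMB8, had 42.2, 36.5 and 44.2 CPM in siTP63b, 71.5, 75.2 and 76.8 CPM in siSOX2b and 66.0, 66.5 and 61.0 CPM in siGRHL2a. The siTP63b libraries lay far below both other groups. In siNC1, of the first set, PSMB5 had a mean of 48.0 CPM. The set of siTP63b held no control, so which of its groups moved cannot be told. PSMB5 was 0.550-fold relative to siSOX2b, a DEG and a larger difference than any inside a set among the 9 genes and the 15 other class I genes (log2FC -0.86, standard error 0.067, adjusted p = 7.7e-12), and 0.635-fold relative to siGRHL2a (log2FC -0.65, standard error 0.067, adjusted p = 3.6e-09). PSMB8 was lower in siTP63b too, by 0.23 and 0.28. In siKLF5b PSMB7 (-0.27, adjusted p = 0.000746) and PSMB5 (-0.23, adjusted p = 0.0172) fell, while PSMB6 did not pass (-0.19, adjusted p = 0.13). Of the 3 subunit genes, PSMB5 was also the one that differed between siGRHL2a and siSOX2b (-0.21, adjusted p = 0.0178).

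Of 15 genes for transcriptional regulators of class I genes, which are TFs, their partner subunits and the histone methyltransferase gene EZH2, 4 fell and 0 rose in siKLF5b, where 12.9% and 10.3% of all genes did. IRF1, which drives class I genes after interferon gamma, had 32.3, 28.7 and 29.0 CPM in siNC1 and 21.5, 21.1 and 20.5 CPM in siKLF5b. The 3 knockdown libraries lay well below the controls (log2FC -0.51, standard error 0.078, adjusted p = 7.9e-06). IRF2, a related factor, fell by 0.51 (adjusted p = 2.8e-05), and STAT2 fell by 0.26 (adjusted p = 0.0252). In siTP63b 5 were higher and 0 lower than in siSOX2b, where 16.4% and 15.4% of all genes were. They were led by RFXAP, a subunit of the RFX complex that shares class I and class II promoters (0.49, adjusted p = 6.0e-05), with NFYB (0.18), NFYC (0.30) and STAT2 (0.32) among the others. Relative to siGRHL2a 4 were higher and 1 lower, against 13.6% and 13.4% of all genes, among them EZH2 (0.21), RFXAP (0.26), IRF1 (0.19) and, lower, NFYA (-0.22). STAT2 was higher in siGRHL2a than in siSOX2b (0.52, adjusted p = 1.7e-05), and EZH2, whose product represses class I genes in some tumours, was lower (-0.16, adjusted p = 0.0215).

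**Figure D5:**
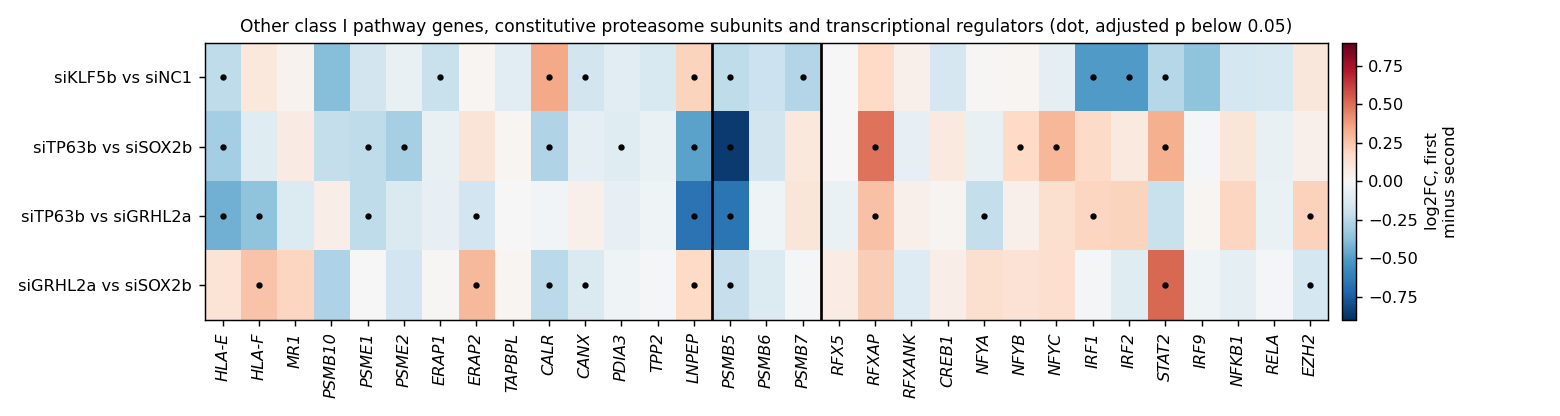
log2FC (colour, first group minus second) of genes of the class I list, the constitutive proteasome subunits and the regulator list (columns, parted by black lines) in the comparisons inside a set (rows). Dots mark an adjusted p below 0.05. PSMB5 in siTP63b relative to siSOX2b, at -0.86, is the darkest cell, and among the regulators IRF1 and IRF2 in siKLF5b, both at -0.51, are the darkest blue.

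The genes whose level followed HLA-B, TAP1 and B2M most closely were sought among the 15345 genes whose mean count was 100 or more, over the 15 libraries relative to the mean of their set. Among the 3 with the highest Pearson correlation with HLA-B were ENSG00000245748 and PSME1 (both r = 0.93). For TAP1 the highest was PSMB9 (r = 0.97), which shares its reads, followed by FLYWCH2 (r = 0.90) and EMC10 (r = 0.88). For B2M the highest was PSMA4 (r = 0.93), a proteasome subunit gene, followed by ENSG00000278834 and ZNF407 (r = 0.90 and 0.89). Among the 9 genes themselves r was 0.56 for HLA-B and HLA-C, -0.20 for HLA-B and B2M, -0.12 for TAP1 and TAP2 and -0.69 for B2M and TAP2 (n = 15 libraries). These values are descriptions of 15 libraries in 5 groups, in which libraries of a group share their treatment.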

How the data were processed

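The material was 15 HCC95 RNA-seq libraries, 3 in each of 5 groups that the sample titles name. According to the study's methods and the submitters' processing notes, the authors mapped reads to hg38 (HISAT2 2.2.1) and deposited raw counts of uniquely aligned reads per Gencode gene (featureCounts 2.0.1), with no scaling. Strand use in counting, and whether reads or fragments were counted, are not given in the sources used here. Unique alignment can drop reads shared by similar genes. Totals per library, from 15655495 to 34229063 counts, limited the precision, as did the spread between libraries of a group.

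Fits and tests on these counts were done in R (version 4.3.3). Library totals, even-number shares, gene overlaps, motif searches and figures were made in Python. The quasi-likelihood model of edgeR (4.0.16, with limma 3.58.1) was fitted once to the 15 libraries with a mean per group, after TMM scaling and the filterByExpr filter. P-values were adjusted by Benjamini-Hochberg over 25108 genes, and every adjusted p printed is from this fit unless its sentence names an alternative, such as a library left out, another scaling or DESeq2 (1.42.0). CPM are relative to the TMM-scaled library size. The steps were tested on simulated counts. Libraries of each group differed by more than counting noise.

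The 9 genes and the gene lists were chosen with earlier results of these data known. Of the other lists, up to 5 genes past the test per comparison inside a set were named by smallest adjusted p, with the 3 genes most like HLA-B, TAP1 and B2M. The gene now called RIGI was counted as DDX58. Alternatives were RLE and upper-quartile factors, other low-count filters, a replicate block, the 6 libraries compared alone, DESeq2, other fold thresholds, halved counts in the 9 libraries with excess even counts, thinning to the smallest library and each library left out. Subtraction of the TAP1 count from PSMB9 was added after seeing the data. Some genes counted in the lists are not reported by name here.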

Additional observations from a re-analysis of the deposited data

How the results depend on the processing

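Of 217 recomputed log2FCs of the 9 genes per comparison, with each of the 15 libraries left out in turn, 196 kept their side of the threshold in siKLF5b relative to siNC1, with 16 calls lost and 5 gained. The counts kept were 209 (siTP63b relative to siSOX2b), 215 (siTP63b relative to siGRHL2a) and 216 (siGRHL2a relative to siSOX2b), and 201, 211 and 211 in siTP63b, siSOX2b and siGRHL2a relative to siNC1. Changes of direction past the test numbered 0. Among values that did not pass, direction changed in 4 (siTP63b relative to siSOX2b), 23 (siTP63b relative to siGRHL2a) and 18 (siGRHL2a relative to siSOX2b). Most libraries left out belonged to neither group compared and could act only through the shared fit. The counts kept were therefore high in part by construction. The calls lost are given beside the genes, except those lost relative to siNC1 by scaling, filter, tool, thinning or the choice of libraries fitted together (HLA-B, HLA-C, TAP1 and NLRC5), and their cause was not tested. Halving the counts of the 9 libraries with excess even numbers changed none of the calls of the 9 genes in the comparisons inside a set. DEG counts depended on the thresholds by construction. In siKLF5b relative to siNC1, 818 genes were DEGs, 5828 without a fold threshold and 369 with an absolute log2FC above 1. The same counts were 1682, 7977 and 1005 for siTP63b relative to siSOX2b, 1354, 6792 and 826 for siTP63b relative to siGRHL2a, and 833, 6151 and 485 for siGRHL2a relative to siSOX2b. Requiring at least 10 counts in every library gave 1090, 897 and 514 in the comparisons among siTP63b, siSOX2b and siGRHL2a, in the order above and among fewer genes tested. Relative to siNC1 the DEG counts with the study's, without a and with the higher fold threshold were 5187, 13589 and 3409 (siTP63b), 5468, 13920 and 3602 (siSOX2b) and 4952, 13553 and 3230 (siGRHL2a). Without a fold threshold 3, 4, 3 and 3 of the 9 genes were called inside a set and 9, 8 and 9 relative to siNC1. Above an absolute log2FC of 1, 0 were called in siSOX2b and 0 in siGRHL2a.

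Same-numbered libraries did not deviate together (correlations from -0.045 to 0.049), so the counts showed no sign of pairing by replicate number. How the replicates were prepared is not given by the labels. With the number as a block the DEG counts were 805, 1667, 1345 and 825 inside a set, and 0 of the 9 genes were DEGs. Of the calls inside a set, that of NLRC5 in siKLF5b was lost under the block (adjusted p = 0.0506). NLRC5, at 104 to 396 counts, was the gene of the 9 with the fewest counts and the widest errors.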

Other observations

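Interferon system genes were followed in a list of 24, of which 21 were tested. In siKLF5b 2 rose and 2 fell relative to siNC1, where 10.3% and 12.9% of all genes did. IFIT1, an interferon-induced antiviral gene, had 5.14, 4.55 and 5.12 CPM in siNC1 and 8.55, 8.42 and 7.76 CPM in siKLF5b, without overlap (log2FC 0.74, standard error 0.15, adjusted p = 0.000396 from edgeR). IFI44 was higher by 1.35 at no more than 16 counts in any of these 6 libraries (adjusted p = 0.0325). The receptor genes IFNAR2 (-0.39, adjusted p = 0.000111) and IFNGR1 (-0.31, adjusted p = 0.00358) fell. In siTP63b 7 were higher and 4 lower than in siSOX2b, where 16.4% of all genes were higher and 15.4% lower, and 4 were higher and 5 lower than in siGRHL2a, where 13.6% were higher and 13.4% lower. OAS3, which makes the activator of RNase L, had 60.8, 59.5 and 60.4 CPM in siTP63b, against 39.6 to 44.1 CPM in siSOX2b and 41.9 to 46.5 CPM in siGRHL2a (log2FC 0.51 and 0.46, adjusted p = 6.4e-08 and 4.1e-07). The RNA sensor gene DDX58 was higher by 0.79 and 0.83, GBP4 by 1.02 and 1.23, and the receptor gene IFNGR1 had a log2FC of -0.51 and -0.45. The receptor genes IFNGR2 (-0.33 relative to siSOX2b) and IFNAR2 (-0.34 relative to siGRHL2a) were lower too. In siTP63b some interferon-stimulated genes (OAS3, DDX58 and GBP4) stood at their highest level of the set while HLA-B and PSMB8 stood at their lowest. Others did not, among them IFI6 and MX1. IFI6 was lowest in siTP63b, at 2.82 CPM against 3.23 in siSOX2b and 3.53 in siGRHL2a (group means). MX1 had 5.83 CPM in siTP63b, 5.73 in siSOX2b and 8.03 in siGRHL2a. Between siGRHL2a and siSOX2b 2 of the 21 were higher past the test, MX1 (0.49, adjusted p = 0.00358) and IFIH1 (0.35, adjusted p = 0.00483), where 12.7% of all genes were higher. The interferon genes IFNB1 and IFNL1 did not pass the low-count filter.

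Of 10 class II genes, 5 were tested. HLA-DRA had at most 4 counts and HLA-DRB1 at most 2 counts in any library, while the transactivator gene CIITA had 6.27 to 8.91 CPM as group means and differed in no pair inside a set past the test. HLA-DMA, which encodes a chain of the class II peptide editor, was lower in siTP63b than in siGRHL2a (18.4 ± 0.542 against 25.6 ± 1.32 CPM, SD, n = 3 each, log2FC -0.47, adjusted p = 6.9e-05 from edgeR) and higher in siKLF5b than in siNC1 (0.25, adjusted p = 0.0425) and higher in siGRHL2a than in siSOX2b (0.29, adjusted p = 0.0118). HLA-DQB1 was higher by 0.83 in siGRHL2a relative to siSOX2b (1.77 against 1.02 CPM, edgeR adjusted p = 0.0452). It had at most 66 counts per library in siGRHL2a and 32 in siSOX2b, and this call was not recomputed under the alternatives.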
